A study of Drosophila melanogaster with 3 samples.

Results

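The cytoplasmic ribosomal protein genes of Drosophila melanogaster were examined for peaks of the Hox protein abd-A in embryos. They were taken as the protein-coding genes whose symbol begins with RpL or RpS, which left out the mitochondrial ribosomal protein genes (mRpL and mRpS). This gave 92 of the 13945 protein-coding genes on the 6 main chromosome arms, grouped by symbol into 50 genes of the large subunit, 38 of the small subunit and 4 whose symbol begins with RpLP. Of these 4, RpLP0, RpLP1 and RpLP2 code for the stalk of the large subunit, whereas RpLP0-like is a relative of RpLP0 and not a stalk gene. Their median length was 1315 bp, with a range of 304 to 4677 bp, against a median of 2166 bp for all protein-coding genes.

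The study measured DNA bound by abd-A by chromatin immunoprecipitation and sequencing (ChIP-seq) in 3 biological replicates of 1 group. The embryos were used whole, were 4 to 24 hours old, held both sexes in a pool, and came from a transgenic fly line that stably expresses abd-A with GFP fused to its C-terminus. The antibody recognised GFP, so the peaks concern the fusion protein, and each list sums over all cells of the embryo and the whole span of ages. No untreated or control sample was analysed here, so no condition was compared and no background level could be set beside the peaks. Binding in few cells and weak binding in many cannot be told apart in such lists.

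Ribosomal proteins are structural parts of the cytoplasmic ribosome, and most of their genes are active in almost all growing cells. The choice by symbol also took in paralogues, among them 5 genes whose symbol ends in -like. Whether each gene chosen codes for a part of the ribosome, and where it is active, was not tested. Many ribosomal protein genes start at a pyrimidine-rich initiator called the TCT motif, whose core is CTTT. Many have promoters with the DRE word bound by Dref or with Motif 1 bound by M1BP. Loss of 1 copy of many of them gives the Minute phenotype of slow growth and short bristles. abd-A is a homeodomain transcription factor that specifies abdominal segments, often with the cofactors Exd and Hth.

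Peaks lay at 13 of the 92 ribosomal protein genes within 500 bp of an annotated start of the gene, and at 25 of them when the gene body and 2 kb on each side were taken as the window. These counts use the summits of the list thresholded by the irreproducible discovery rate (the IDR list, 8143 summits). It keeps peaks by how alike they rank in replicate lists, but a peak can be missing from a replicate. Of the 8143 summits, 7733 were held by a peak in all 3 replicates. The share in the window was 27.2% (95% Clopper-Pearson interval 18.4 to 37.4%) for ribosomal protein genes and 26.5% for all protein-coding genes. At the own start it was 14.1% (7.74 to 23.0%) for ribosomal protein genes and 12.8% for all protein-coding genes. Both shares were close to the background of all genes. Among the 10212 protein-coding genes within the same length range, the share was 17.1% in the window and 6.29% at the own start, and both lie below the intervals of the ribosomal protein genes. Genes of 1 genome are not replicates, so these shares were described and not tested.

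In the list called on all 3 replicates together (the pooled list, 30000 summits), 35 ribosomal protein genes (38.0%) had a summit in the window, against 37.8% of all protein-coding genes and 28.5% of those in the length range. At the own start the pooled list held 22 of the 92 (23.9%), against 22.2% of all protein-coding genes and 12.6% of those in the length range. Both shares were again near the level of all genes. The share of genes in the length range lay within the interval of the ribosomal protein genes for the window (28.1 to 48.8%) and below it for the own start (15.6 to 33.9%).

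The replicates differed in how many ribosomal protein genes they held. Among the strongest 8143 peaks of a replicate, 33 ribosomal protein genes had a summit in the window in replicate 1, 21 in replicate 2 and 28 in replicate 3, a mean of 27.3 ± 6.03 (SD, n = 3). The background over all protein-coding genes was 28%, 26.2% and 26.2% in replicates 1, 2 and 3. Replicate 2 thus held the fewest ribosomal protein genes, and its share (22.8%) was the only one of the 3 below its background. At the own start the counts were 18, 11 and 15 (14.7 ± 3.51, SD, n = 3), with a background of 14%, 12.5% and 12.9% in the same order. Here too replicate 2 was lowest, at 12.0% of the ribosomal protein genes.

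**Figure D1:**
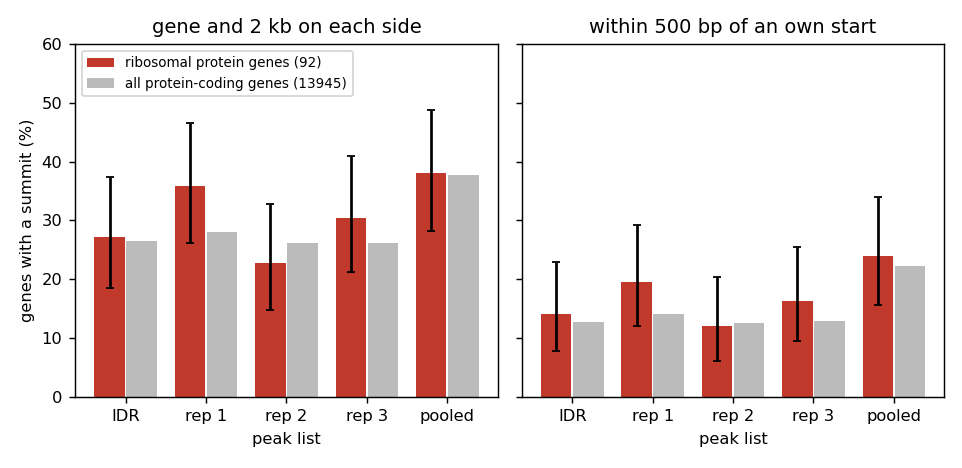
Share of genes (%, y axis) with a summit in the gene and 2 kb on each side (left panel) or within 500 bp of an own start (right panel), in each peak list (x axis; rep 1 to 3 are the strongest 8143 peaks of each replicate). Red bars are the 92 ribosomal protein genes with 95% Clopper-Pearson intervals and grey bars all 13945 protein-coding genes; the grey bar lies within the red bar's interval in every list.

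Counts over several lists were taken for the ribosomal protein genes alone, so no share of all protein-coding genes stands beside them. In the pooled list the share with a summit in the window was 38.0%, against 37.8% of all protein-coding genes. Of the 92 genes, 44 had a summit in the window in at least 1 of the 5 lists and 48 had none. Those with none include RpL10, RpL10Ab, RpL11, RpL14 and RpL15, the first 5 in alphabetical order, all of the large subunit. An own-start summit was found in any list for 33 genes, in all 3 full replicate lists for 19, and in the strongest 8143 peaks of all 3 replicates for 8. In the IDR list 17 genes had 1 summit in the window, 4 had 2 and 4 had 3 or more. This split was not taken over all protein-coding genes either. The IDR share with at least 1 summit was 27.2%, against 26.5% of all protein-coding genes. By chromosome arm, 3L held 7 of its 14 ribosomal protein genes with a summit in the window, against 810 of 2739 protein-coding genes there, and 5 at the own start, against 376. The window count was 5 of 19 on 2L, against 668 of 2657 protein-coding genes, and 5 of 21 on 2R, against 764 of 2852. It was 5 of 23 on 3R, against 863 of 3421, and 2 of 14 on X, against 585 of 2196. The single ribosomal protein gene on chromosome 4, RpS3A, had a summit, against 4 of 80 protein-coding genes. At the own start the count was 3 on 2L, against 346 protein-coding genes, and 3 on 2R, against 370. It was 1 on 3R, against 409, 1 on X, against 281, and 0 on chromosome 4, against 3. These are small counts, and the arms were not tested against each other.

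The stalk is the flexible arm of the large subunit that recruits translation factors. All 4 RpLP genes had an IDR summit in the window and 3 of them at the own start, beside the 26.5% and 12.8% of all protein-coding genes given above. With 4 genes these counts are descriptions, and they rest partly on neighbours: the only summit of RpLP1 lay at the start of CG11885, and the own-start summit of RpLP0-like was nearer to a start of 14-3-3zeta. For the large subunit the counts were 10 genes in the window and 4 at the own start of 50, and for the small subunit 11 and 6 of 38.

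Sequences around own-start summits are shown for 7 genes: RpL30, for the strongest summit, and 6 of those whose window holds a searched word. They were read from the RefSeq genome of release 6, which shares its coordinates with dm6, and run 5′ to 3′ on the strand of the ribosomal protein gene. Capitals mark 1 of 3 homeodomain words or the DRE word on either strand, whose letters are given with their counts further on, and a run without capitals holds none of these. RpL30 (minus strand, chr2L:19009297-19009397) has the strongest own-start summit. The other windows are of RpL22 (minus, chrX:765433-765533, the weaker of its summits), RpS9 (minus, chr3L:9511554-9511654), RpS21 (plus, chr2L:2855857-2855957), RpS20 (plus, chr3R:20821953-20822053), RpS12 (plus, chr3L:13023286-13023362) and RpS13 (minus, chr2L:8364652-8364696). The last 2 are shortened to end close to the gene's start, and the summit of RpS13, downstream of its start, lies just outside the bases shown.
RpL30: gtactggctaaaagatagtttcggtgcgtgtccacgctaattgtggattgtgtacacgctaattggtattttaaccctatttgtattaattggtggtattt
RpL22: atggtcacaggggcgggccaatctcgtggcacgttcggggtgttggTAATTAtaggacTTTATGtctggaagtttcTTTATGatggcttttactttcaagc
RpS9: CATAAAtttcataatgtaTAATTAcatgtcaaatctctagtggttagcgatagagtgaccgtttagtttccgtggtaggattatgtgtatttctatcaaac
RpS21: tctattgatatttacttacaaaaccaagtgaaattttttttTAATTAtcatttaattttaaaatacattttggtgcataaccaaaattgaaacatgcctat
RpS20: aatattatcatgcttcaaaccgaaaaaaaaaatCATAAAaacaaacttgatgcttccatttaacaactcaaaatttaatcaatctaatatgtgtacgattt
RpS12: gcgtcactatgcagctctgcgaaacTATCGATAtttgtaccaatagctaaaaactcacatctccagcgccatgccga
RpS13: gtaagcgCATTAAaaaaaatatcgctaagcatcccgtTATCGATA

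The signal of each summit is the signal value the authors deposited for the strongest replicate peak that holds it, divided by the median of that replicate's list. A value of 1 is thus a typical peak of a list of 30000 rows. Peaks of the IDR list are stronger, with a median signal value of 454, against 192 in the pooled list. RpL30, a protein of the large subunit, had relative signals of 5.55, 4.19 and 5.73 in replicates 1, 2 and 3 (5.16 ± 0.844, SD, n = 3) at a summit 41 bp upstream of its start. This summit ranked 567 in the IDR list, the highest rank among own-start summits of the family. In each replicate it was at least 4 times the median peak of the 30000, and in the IDR list it was 2.32 times the median of that list. A further RpL30 summit, 793 bp upstream and between genes, was weaker at 1.82, 1.77 and 1.70.

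RpL22, also of the large subunit, had 2 summits, at 153 bp (rank 1237) and 353 bp (rank 7256) upstream of the start. In each replicate the strongest peak that held them was the same, with relative signals of 3.85, 4.24 and 3.27 (3.79 ± 0.487, SD, n = 3). Each replicate list also had 2 summits at the own start, so these values need not be those of the weaker summit. In the pooled list the first summit had 4.12 and the second 1.71. The first lay 5 bp from the start of lncRNA:CR44966, a noncoding RNA gene on the opposite strand, and the second inside it. The paralogue RpL22-like had no IDR or pooled summit, so RpL22 and RpL22-like were the only pair of paralogues in which exactly 1 gene had an IDR summit at its own start.

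RpL19 had relative signals of 3.91, 3.24 and 2.99 (3.38 ± 0.473, SD, n = 3) at 55 bp upstream of its start, and 76 bp from the start of the neighbouring CG3776 on the opposite strand. RpL23A had 3.36 in replicate 1 and 2.80 in replicate 3, 117 bp upstream of its start. No peak of replicate 2 held this summit, and the nearest replicate 2 summit was 4701 bp away. The 4 large-subunit genes had the highest replicate signals of the own-start summits when averaged over the replicates with a peak, and all but RpL23A had one in every replicate. By rank in the IDR list RpL23A, at 3093, stood behind RpLP0 (2752) and RpS20 (2852).

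Among the RpLP genes, RpLP0 had relative signals of 2.68, 2.32 and 2.91 (2.64 ± 0.297, SD, n = 3) 76 bp upstream of a start. RpLP2 had 1.74, 2.47 and 1.29 (1.83 ± 0.595, SD, n = 3) 199 bp upstream of its start, and in replicate 3 its peak was not among the strongest 8143. RpLP0-like had 1.94 and 1.92 in replicates 2 and 3 at 139 bp upstream of its start. In replicate 1 no peak held that position, although a summit lay 30 bp away. This summit lay inside 14-3-3zeta, an adaptor protein gene, and 52 bp from a start of that gene, so it was nearer to the neighbour than to RpLP0-like.

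For the small subunit, RpS20 had 2.72, 2.77 and 2.36 (2.62 ± 0.223, SD, n = 3) 178 bp upstream of its start, and 155 bp from that of CG17271. RpS21 had 1.87, 3.61 and 1.76 (2.41 ± 1.03, SD, n = 3) 163 bp upstream, and 129 bp from the start of CG3104. The replicates were close for RpS20, whereas for RpS21 replicate 2 stood above the other 2. RpS9 had 2 summits, 73 and 283 bp upstream. The strongest replicate peak that held both had 1.62, 2.43 and 2.12 (2.05 ± 0.409, SD, n = 3). Replicates 1 and 3 each had 2 summits at this start, and replicate 2 had 1. In the pooled list the nearer summit had 2.10 and the farther 1.70.

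RpS13 was the only gene whose own-start summit lay downstream of the start, by 16 bp, with relative signals of 2.16, 2.10 and 1.30 (1.85 ± 0.481, SD, n = 3). CSN8, a subunit of the COP9 signalosome, starts 209 bp from it. RpS4 had 2.39, 1.04 and 2.08 (1.84 ± 0.708, SD, n = 3) 63 bp upstream, so in replicate 2 its peak was hardly above the median of the list. RpS12, which in Drosophila takes part in cell competition between cells with and without a Minute mutation, had 1.95, 1.71 and 1.74 (1.80 ± 0.130, SD, n = 3) 16 bp upstream. Its level was the lowest among own-start summits present in all replicates and also the most even.

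**Figure D2:**
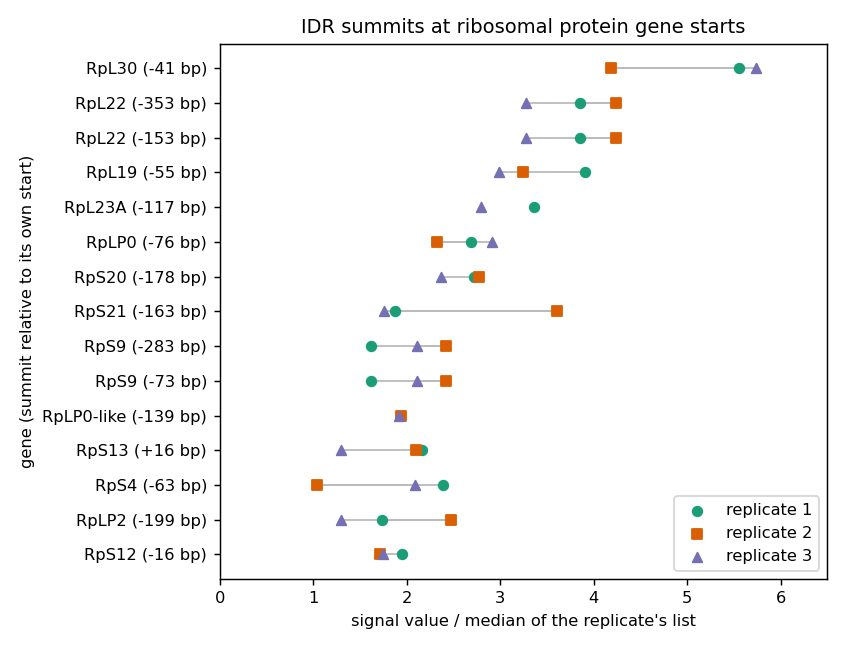
Relative signal (deposited signal value over the median of the replicate's list, x axis) of the 15 IDR summits at ribosomal protein gene starts (y axis, with the distance from the start, negative upstream). The value is that of the strongest replicate peak holding the summit, so the 2 summits of RpL22 share values, as do those of RpS9. Symbols are the 3 replicates and the grey line spans their range; RpL30 is highest in the mean, and RpL23A and RpLP0-like have a symbol missing where no peak of the replicate held the summit.

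The 15 own-start summits lay upstream of the start in 14 cases (93.3%), at a median distance of 117 bp (range 16 to 353 bp). Of the 1970 IDR summits within 500 bp of any protein-coding start, each taken with its nearest coding gene, 66.1% lay upstream, at a median of 124 bp. Summits of ribosomal protein genes were taken with the ribosomal protein gene even where another start was nearer, which was so for 5 of the 15. In 9 of the 15 (60%) a start of another gene also lay within 500 bp, against 364 of the 1970 (18.5%). For RpS12 that other gene is a snoRNA gene inside RpS12 itself, with its start 244 bp from the summit.

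By replicate signal the own-start summits had nearly the same median as those of other genes, while by rank in the IDR list their median was lower. The median of the relative signal, averaged over replicates, was 2.41 for the 13 own-start summits held by a peak in all 3 replicates (range 1.80 to 5.16), against 2.43 for protein-coding starts in general. The 13 include the pairs of RpL22 and RpS9, each pair with the values of the strongest replicate peak that held both summits. The median rank in the IDR list was 4982 for ribosomal protein genes (567 to 7612), against 3723 for all protein-coding starts. The best rank was 567 among the 15 and 6 among the 1970 at protein-coding starts, but extremes of groups so unequal in size cannot be compared.

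With the own start put first where both were near, summits in the windows lay at neighbours' starts about as often as at own starts. The windows held 37 distinct IDR summits, 1 of them in the overlapping windows of RpL12 and RpL39. Of these, 15 lay at the own start (40.5%, 95% Clopper-Pearson interval 24.8 to 57.9%), 17 at the start of another gene (45.9%, 29.5 to 63.1%), 3 in the body of another gene (8.11%) and 2 between genes (5.41%). None lay in the own gene body more than 500 bp from a start. The intervals overlap widely, and the order depends on the rule. With 1000 bp in place of 500 bp, the share at the own start was 59.5%. Where the nearer start decided, it was 27.0%. In the pooled list 31 of 86 summits lay at the own start (36.0%) and 38 at the start of another gene (44.2%).

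Counted by position alone, only 2 IDR summits lay within the 132 kb of ribosomal protein gene bodies, those of RpS13 and RpLP0, or 0.0151 per kb, and 36 in the 368 kb of flanks, or 0.0978 per kb. Each gene was counted with its own window, so overlapping flanks count more than once, as does the summit shared by RpL12 and RpL39. In protein-coding genes of the same length range the densities were 0.0182 per kb in bodies and 0.0527 per kb in flanks. Flanks were thus denser in summits around ribosomal protein genes, and bodies were about alike. In the pooled list the densities were 0.0605 in bodies and 0.223 in flanks for ribosomal protein genes, against 0.0514 and 0.149 for genes in the length range. A flank can hold a neighbour's start, and the part of gene spacing in these densities was not tested.

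The strongest summit in any of the windows lay in that of RpLP0-like, but over 14-3-3zeta, 223 bp from one of its starts. It ranked 183 in the IDR list, with relative signals of 7.32, 7.73 and 7.81 in replicates 1, 2 and 3 (7.62 ± 0.263, SD, n = 3). RpLP0-like had another summit, 45 bp from the start of Jra, the Drosophila Jun protein, with 3.20 in replicate 1 and 3.70 in replicate 3 but no replicate 2 peak, the nearest summit being 2836 bp away.

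The window of RpS28a held a summit (chr3R:30022111) 110 bp from a start of Mgat2, an enzyme of N-glycan synthesis, at rank 372 with 6.07 in replicate 1 and 6.74 in replicate 3. Replicate 2 had no peak over it, and its nearest summit was 834 bp away. The window of RpL13A held one (chr3R:5623187) 36 bp from the start of Dph4, which acts in diphthamide synthesis, at rank 442 with 5.46, 5.82 and 5.42 (5.57 ± 0.217, SD, n = 3). The summits at 14-3-3zeta, Mgat2 and Dph4 thus ranked above every own-start summit of the family.

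RpS13 had 4 summits in its window, the most of any ribosomal protein gene. Apart from its own start, 2 lay at Pp2A-29B, the scaffold subunit of protein phosphatase 2A, and 1 at CG7627. The stronger one at Pp2A-29B ranked 912, with 4.08 in replicate 1 and 3.20 in replicate 3. No replicate 2 interval held it, although a replicate 2 summit lay 80 bp away. RpLP1 had its only summit 27 bp from the start of CG11885 at rank 1150, with 5.00 and 2.40 in replicates 1 and 2, while the nearest summit of replicate 3 was 4252 bp away.

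RpS21 had 2 further summits at and in CG2991, with means of 2.72 ± 0.316 and 1.99 ± 0.399 (SD, n = 3 each), and RpS9 had 1 at the start of CG3408 with 2.58 ± 0.690 (SD, n = 3). In the other windows the neighbours included the developmental genes numb, which acts against Notch, pan, the Wnt pathway factor TCF, and dos, an adaptor of receptor tyrosine kinases. The 22 summits not at an own start ranked from 183 to 8010. Their median relative signal was 2.27 over the 15 held by a peak in all 3 replicates, which leaves out 7, those at Mgat2, Jra and CG11885 and the stronger one at Pp2A-29B among them.

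**Figure D3:**
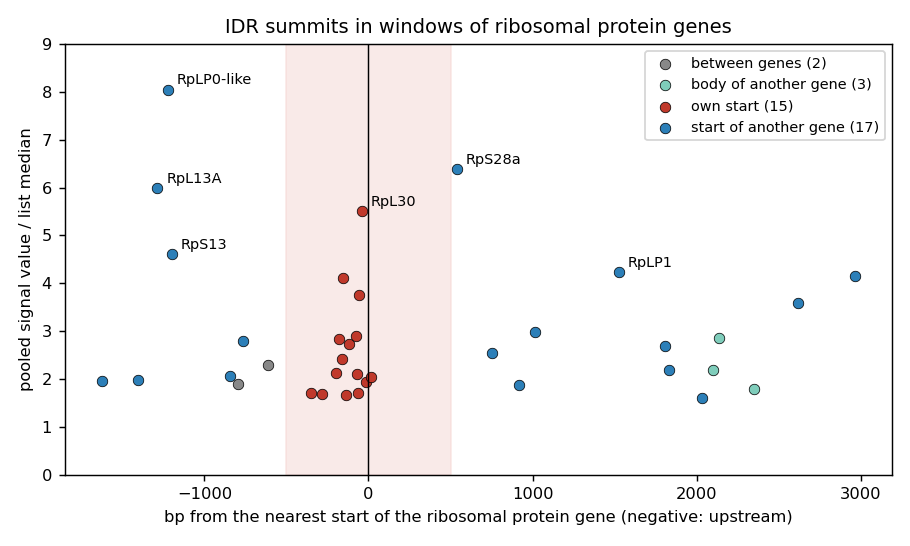
Distance of the 37 IDR summits from the nearest start of the ribosomal protein gene (x axis, bp, negative upstream) against the pooled signal value over the median of the pooled list (y axis), coloured by class. The shaded band marks 500 bp around the start; the highest points, of RpLP0-like and RpS28a, lie outside it at the starts of other genes, and RpL30 is the highest inside.

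Replicate 2 lacked a peak at more of these summits than the others. Of the 37 IDR summits, 1 was held by no peak of replicate 1, 7 (18.9%) by no peak of replicate 2 and 1 by no peak of replicate 3, against 1.54%, 1.90% and 1.94% of all 8143 IDR summits. Some of the 7 had a replicate 2 summit close by. With no replicate 2 summit within 500 bp there were 4 of 37 (10.8%), namely those of RpL23A, RpL34b (at CG34117), RpLP0-like (at Jra) and RpS28a (at Mgat2). At IDR summits of all protein-coding starts this was so for 39 of 1970 (1.98%), and for 69 of all 8143 (0.847%). Sequencing depth of the replicates was unknown, and its part in this was not tested.

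For 9 ribosomal protein genes the pooled list held a summit at the own start and the IDR list did not. This count was not taken over all protein-coding genes, and in each of the 2 lists the own-start share of the family was near theirs. The strongest pooled summit at an own start outside the IDR list was that of RpS15Aa, at rank 8449 and 48 bp downstream of the start, with relative signals of 1.40, 1.49 and 1.49 (1.46 ± 0.0544, SD, n = 3). RpS3A followed at rank 9245 and 85 bp upstream with 1.86, 0.809 and 1.66 (1.44 ± 0.557, SD, n = 3). A second summit of RpLP0-like came next at rank 10071, then RpL17 at rank 10121 with 1.09, 1.02 and 1.60, and RpS14b at rank 10341 with 1.63, 0.758 and 1.37. For RpS3A and RpS14b, replicate 2 was below the median of its list.

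The surroundings of the genes are given as a description. The median distance from the start to coding sequence upstream was 898 bp for the 13 genes with an IDR summit at the own start 1111 bp for the 12 genes with one elsewhere in the window, and 670 bp for the 67 genes with no IDR summit in the window. The nearest start of another gene was at a median of 292 bp in these 13 genes, 555.5 bp in the 12 and 559 bp in the 67. Genes inside the ribosomal protein gene were counted here, so this is not the spacing to neighbours alone. Among the 13, the nearest start for RpL30, RpS12, RpS4 and RpS9 was that of a snoRNA gene inside them. A snoRNA gene lay inside 7 of the 13 genes, 2 of the 12 and 19 of the 67. A start on the opposite strand within 1 kb upstream was found for 8 of the 13, 9 of the 12 and 41 of the 67.

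Ribosomal protein genes were set beside 5 other lists of genes of growth and translation in the IDR list. Mitochondrial ribosomal protein genes had a summit in the window in 13 of 73 (17.8%) and at the own start in 8 (11.0%). Proteasome genes had 6 of 48 (12.5%) and 1 (2.08%), which was Rpn13. Translation factor genes had 11 of 54 (20.4%) and 6 (11.1%), among them eEF1alpha1, eEF2 and eIF4A. Ribosome biogenesis and snoRNP genes had 3 of 21 (14.3%) and 1 (4.76%). The share of cytoplasmic ribosomal protein genes in the window was above those of these 4 lists, though its interval of 18.4 to 37.4% takes in the share of translation factors.

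Regulators of ribosomal protein genes and of translation had the most summits, with 12 of 24 genes in the window (50%) and 10 at the own start (41.7%). They are long genes, with a median of 7005.5 bp, and 32 of their 51 summits lay in the own gene body, a class with no summit among ribosomal protein genes. REPTOR, a transcription factor downstream of TOR, had 13 summits in the window, Mnt, an antagonist of Myc, had 8, and Myc and foxo had 5 each. Xrp1, which is induced in cells with a Minute mutation, had 3, and Thor, the translation inhibitor 4E-BP, had 2. The promoter factors M1BP and Dref had none, as did Ibf1, Ibf2 and lolal, whereas Trf2 and Trl had 4 each and pzg had 1.

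**Figure D4:**
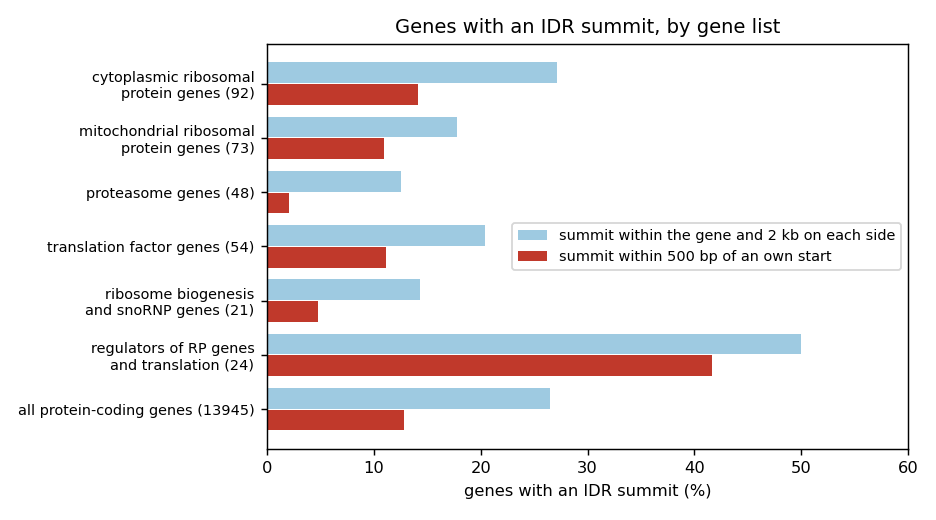
Share of genes with an IDR summit (x axis, %) in the gene and 2 kb on each side (blue) and within 500 bp of an own start (red), by gene list (y axis, number of genes in brackets). Cytoplasmic ribosomal protein genes (27.2% and 14.1%) lie near all protein-coding genes (26.5% and 12.8%), and the regulators (50% and 41.7%) lie above both.

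Both strands were searched for 8 sequence words within 50 bp of each summit. The homeodomain word TAATTA lay in 4 of the 15 own-start windows of ribosomal protein genes (26.7%), against 5.79% of the 1970 at protein-coding starts and 5.15% of all 8143. The 4 windows are those of RpL22 (its farther summit), RpLP0-like, RpS9 and RpS21. All of these summits but that of RpS9 lay nearer to a start of another gene than to the own start. Of the 22 summits in the windows but not at an own start, 3 held TAATTA (13.6%). TTTATG was held by 3 of 15 (20%), against 9.95% and 17.6%, and TTAATG by 1 of 15 (6.67%), against 7.41% and 9.11%. Mean GC content was 38.1% in the own-start windows of ribosomal protein genes, 44.2% at protein-coding starts and 44.9% over all summits, and the part of base composition in the TAATTA share was not tested.

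TGATNNAT, the word for a Hox protein with Exd, lay in none of the 15, against 4.31% at protein-coding starts and 4.35% over all summits. The DRE word TATCGATA lay in 2 of 15 (13.3%), those of RpS12 and RpS13, against 1.52% and 0.479%. GGTCACAC (Motif 1), GAGAG (GAGA factor) and CACGTG (E-box) lay in none of the 15, against 1.42%, 23.6% and 1.37% at protein-coding starts. With 15 windows, 1 window is 6.67%, so words of a few percent could not be assessed.

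**Figure D5:**
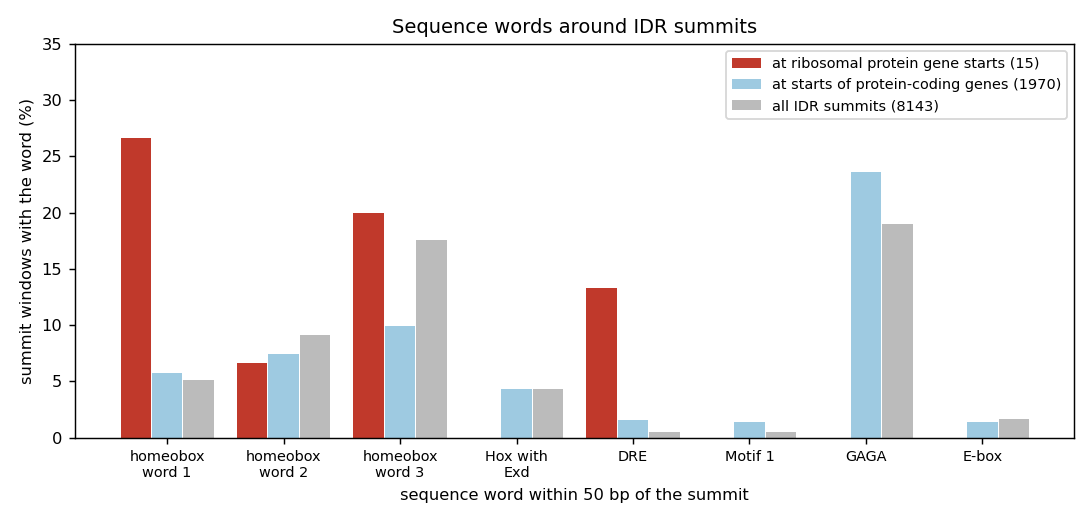
Share of summits with a word within 50 bp (y axis, %) for the 15 own-start summits of ribosomal protein genes (red), the 1970 at protein-coding starts (blue) and all 8143 IDR summits (grey). Homeobox word 1 is TAATTA, word 2 is TTAATG and word 3 is TTTATG, and the others are named as in the text; word 1 and DRE stand higher at ribosomal protein genes (26.7% and 13.3%), and the GAGA word was in none of the 15.

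Over the promoters, from 250 bp before to 50 bp after the start, the words known from these genes were more frequent in the family than in protein-coding genes at large. TATCGATA lay in 30.4% of the 92 ribosomal protein promoters, against 9.37% of all protein-coding promoters, and GGTCACAC in 15.2%, against 7.71%. CTTT on the sense strand within 10 bp of the start, the core of the TCT initiator, was found in 42 of the 92 (45.7%), against 9.19% of all protein-coding genes. TAATTA lay in 27.2%, against 20.5%, and TGATNNAT in 12.0%, against 18.8%.

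Promoters and CTTT were taken at the 5′ end of the gene record. Among the 13 genes with an own-start IDR summit, 4 had CTTT near that start, against 38 of the other 79, and 3 had TATCGATA in the promoter, against 25 of the other 79. For CTTT, RpLP0 would make it 5 of the 13 at the transcript start nearest its summit, which is not the 5′ end of its gene record. TAATTA lay in the promoter of 5 of the 13 genes and of 20 of the other 79. The bases around the start are shown for 3 of those with CTTT, which stands in capitals, from 10 bp before to 10 bp after the start on the gene's strand (RpL22 minus, chrX:765120-765140; RpL23A minus, chr3L:1668644-1668664; RpS9 minus, chr3L:9511521-9511541).
RpL22: gcttccgccttctgttCTTTt
RpL23A: cccctcagttttcCTTTtcat
RpS9: ctaccttcacccctCTTTctt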

How the data were processed

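ChIP-seq peak lists in narrowPeak format on dm6 were deposited for 3 replicates, for all replicates pooled and for the IDR threshold. Text records deposited with the lists name 1 control file for every replicate. Of the software, neither aligner nor caller is named, and which IDR cutoff applied is also not given in the sources used here. The deposited signal value was treated as a caller's score, made by the authors, and served only to rank peaks or to set them against their list's median. Replicate and pooled lists hold 30000 rows each, so the depth is unknown.

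Summits were taken as the interval start plus the peak offset. Genes came from Ensembl release 115 on genome release 6, without transposable element records, and all 92 ribosomal protein genes had the same coordinates in RefSeq. A summit in several windows was taken with the nearest ribosomal protein gene, and classes were assigned in the order own start, own body, start of another gene, body of another gene and between genes. All intervals are Clopper-Pearson at 95% and reflect counting error alone. Replicates are biological per the labels, and the IDR list was made from them, so their support is not independent of it.

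The genes named were those with an IDR summit at the own start, those with 3 or more in the window, the 5 strongest summits elsewhere in the windows and the 5 strongest pooled own-start summits outside the IDR list, paralogue pairs with exactly 1 own-start gene, and the first 5 without a summit. Neighbours and list genes beyond these were named after their values were seen. Members, lists and rules were chosen with earlier results of these data known. In the lists, Tor was matched as mTor. The symbol rule leaves out sta and Rack1, which were added only in an alternative, where 27 genes had an IDR summit in the window. On simulated data 30 of 30 summits planted close to a start were recovered over 92 genes. Any summit within 500 bp is classed as own start first, so this checks the counting alone. Alternatives were other windows, start distances, peak lists, match rules and members, and each replicate left out. Python 3.11.15 was used with numpy 2.4.6, pandas 2.3.3, scipy 1.17.1 and matplotlib 3.10.9.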

Additional observations from a re-analysis of the deposited data

How the results depend on the processing

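Of 38 alternatives, 31 kept the value within 1.5 times the count or within the spread, and 7 moved it. The 25 ribosomal protein genes with an IDR summit in the window became 2 with the gene body alone, 17 with 500 bp on each side, and 37 with the widest window tried (5 kb). The 13 genes with an own-start summit became 7 within 100 bp of the start, 7 in the stronger 50% of the IDR list and 22 in the pooled list. The share of summits at the own start became 59.5% within 1000 bp. It was 27.0% where the nearer start decided. Own-start summits held by a strong peak of every replicate were found for 8 genes, but for 4 when replicate summits had to lie within 100 bp. The median relative signal of 2.41 was 2.13 in the pooled list. Leaving out each replicate in turn gave mean counts of 24.5 to 30.5 genes in the window, 9 to 10 genes held in every remaining replicate and median relative signals of 2.39 to 2.50. No paired analysis was possible because the series has 1 group. The number of reads behind the lists was unknown, so the absence of a peak cannot be read as absence of binding.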
